A study of Mus musculus with 4 samples.

Results

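Chromatin accessibility far from protein-coding genes was examined in flow-sorted mouse lung endothelial cells by ATAC-seq, an assay that reads open chromatin as the places where a transposase can insert adapters. The samples were 2 Dnmt3a knockout (KO) and 2 wild-type (WT) libraries. The labels gave no allele, Cre driver, age or sex, nor whether separate mice stood behind the libraries of 1 genotype, so a p-value measured only the spread between these libraries. For each library, peak positions on mm10 were given with no score or read count, so peak width in base pairs was the only measurement and read depth was unknown. Peaks of the 4 lists were merged wherever they overlapped by at least 1 bp. A desert region was a merged region called in all 4 lists whose centre lay over 50 kb from every protein-coding gene span. There were 9373 such regions among 75395 called in all 4 lists (12.4%) and among 113056 merged regions in all (8.29%). The regions were thus chosen by their presence in the 4 lists and their distance to a gene, which are described without a test.

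Gene deserts are long stretches between protein-coding genes, and many hold enhancers, sequences that switch on a gene from a distance and that are read as open chromatin in the cells where they act. Deserts beside genes for developmental regulators are known for enhancers that work in one tissue and not in another, and the enhancer of a gene need not be closest to it. Dnmt3a encodes a de novo DNA methyltransferase, which adds methyl groups to cytosines, mainly in CpG dinucleotides, and enhancers are often low in methylation where they are active.

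Some desert regions lay on the starts of long non-coding RNA (lncRNA) genes, and their start windows are the desert sequences at hand. A start window runs from 250 bases before to 50 bases after the annotated start of a gene (RefSeq, GRCm38.p6). Such windows of 297 lncRNA genes overlapped 297 desert regions (3.17%), and at 96 regions a peak of each list covered a whole window. Shown are the covered windows with the most and the fewest CpG, Gm34507 and Gm33277, and 3 windows of lncRNA genes described further on. They were chosen after their values were seen. Capitals mark CpG dinucleotides, and sequences run 5′ to 3′ on the strand of the gene.
Gm34507, chr17:4908072-4908371, plus strand: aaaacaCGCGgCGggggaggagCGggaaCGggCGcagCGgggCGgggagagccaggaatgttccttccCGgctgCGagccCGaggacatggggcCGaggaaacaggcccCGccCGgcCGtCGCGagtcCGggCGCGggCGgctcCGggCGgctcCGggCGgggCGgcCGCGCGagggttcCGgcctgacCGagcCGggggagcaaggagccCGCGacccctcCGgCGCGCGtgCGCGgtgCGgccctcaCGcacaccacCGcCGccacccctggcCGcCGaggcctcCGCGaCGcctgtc
Gm33277, chr11:34941678-34941977, minus strand: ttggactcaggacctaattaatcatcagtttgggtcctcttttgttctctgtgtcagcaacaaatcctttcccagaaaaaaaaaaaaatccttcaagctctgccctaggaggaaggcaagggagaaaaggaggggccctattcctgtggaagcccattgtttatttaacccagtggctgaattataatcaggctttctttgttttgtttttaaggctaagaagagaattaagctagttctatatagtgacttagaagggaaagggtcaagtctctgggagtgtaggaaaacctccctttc
Morrbid, chr2:128429302-128429601, minus strand: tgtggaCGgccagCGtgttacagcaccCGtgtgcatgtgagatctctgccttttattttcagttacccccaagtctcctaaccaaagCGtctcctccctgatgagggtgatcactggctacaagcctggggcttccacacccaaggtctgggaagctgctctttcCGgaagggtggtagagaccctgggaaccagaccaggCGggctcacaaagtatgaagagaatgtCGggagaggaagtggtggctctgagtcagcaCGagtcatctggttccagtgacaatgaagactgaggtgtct
Mir99ahg, chr16:77329078-77329377, plus strand: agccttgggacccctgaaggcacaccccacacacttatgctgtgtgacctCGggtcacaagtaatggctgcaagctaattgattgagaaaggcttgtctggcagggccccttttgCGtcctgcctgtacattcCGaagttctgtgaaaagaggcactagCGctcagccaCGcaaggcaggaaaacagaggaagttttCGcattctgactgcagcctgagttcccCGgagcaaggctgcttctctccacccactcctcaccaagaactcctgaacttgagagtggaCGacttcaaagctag
Mir100hg, chr9:41376276-41376575, plus strand: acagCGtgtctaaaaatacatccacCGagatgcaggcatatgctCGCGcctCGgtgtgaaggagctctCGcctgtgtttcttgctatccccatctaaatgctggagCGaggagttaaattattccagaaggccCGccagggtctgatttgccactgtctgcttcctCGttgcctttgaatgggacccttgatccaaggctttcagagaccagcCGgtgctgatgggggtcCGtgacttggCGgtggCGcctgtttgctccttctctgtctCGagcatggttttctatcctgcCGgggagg

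The Gm34507 window held 49 CpG and was 79.3% G and C. The Gm33277 window held 0 CpG and was 41.3% G and C. Both lay in peaks of all 4 libraries. The region on the Gm34507 start was 848 and 844 bp wide in KO cells, against 827 and 842 bp in WT cells, both KO values above. The region on the Gm33277 start was 749 and 721 bp in KO cells, against 783 and 860 bp in WT cells, both KO values below. Across the 96 covered windows the median was 7 CpG, with quartiles of 4 and 12, against 4 CpG across all 11588 lncRNA windows and 13 across 21262 protein-coding windows. Motifs of 3 factor families used in endothelium were searched on both strands, and a match could share bases with a match of another motif. The ETS-type motif GGAAGT stood in 36 of the 96 windows (37.5%), against 21.9% of all lncRNA windows and 23.8% of all 32851 windows. The SOX-type motif ACAATG stood in 22 windows (22.9%), against 15.4% of all lncRNA windows and 12.6% of all windows. The AP-1 motif TGANTCA stood in 10 (10.4%), against 9.31% and 7.81%. The Morrbid window held all of these motifs. A match is a string of letters and not a bound site.

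MicroRNA genes gave a further set of desert sequences. Of 1005 hairpins on the chromosomes used, 154 lay over 50 kb from a protein-coding gene, and desert regions overlapped 5 of them and lay within 5 kb of 30. The mature microRNAs whose hairpins or host genes are described below are shown with the seed, bases 2 to 8, in capitals.
mmu-miR-9-5p: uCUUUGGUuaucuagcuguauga
mmu-miR-30a-5p: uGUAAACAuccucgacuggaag
mmu-miR-30c-5p: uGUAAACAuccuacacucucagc
mmu-miR-99a-5p: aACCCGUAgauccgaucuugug
mmu-miR-100-5p: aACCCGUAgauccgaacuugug

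miR-30a-5p and miR-30c-5p shared 1 seed, GUAAACA, and the hairpins Mir30a and Mir30c-2 were neighbours on chromosome 1. miR-99a-5p and miR-100-5p shared another, ACCCGUA, and came from hairpins on chromosomes 16 and 9. miR-9-5p, best known from neural progenitors, had a seed of its own among these 5.

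Desert regions were fewer and lay farther apart at greater distance from genes. The amount of sequence in each distance class was not counted, so these numbers are not densities. The median distance was 118 kb and the largest 2138 kb. Between 50 and 100 kb from a gene there were 3877 regions, between 100 and 200 kb 3020, between 200 and 300 kb 1229, between 300 and 500 kb 857, between 500 and 1000 kb 332, and beyond 1000 kb 58. The median gap to the nearest other shared region was 6095 bp in the first of these classes, 6942, 7882, 11345 and 27722 bp in the next, and 95748 bp beyond 1000 kb. The share of merged regions called in all 4 lists was 62.2% in the first class and 48.3% in the last. Over all distances it was 60.9% of 15398 merged desert regions, against 67.6% of the merged regions nearer to genes.

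**Figure D1:**
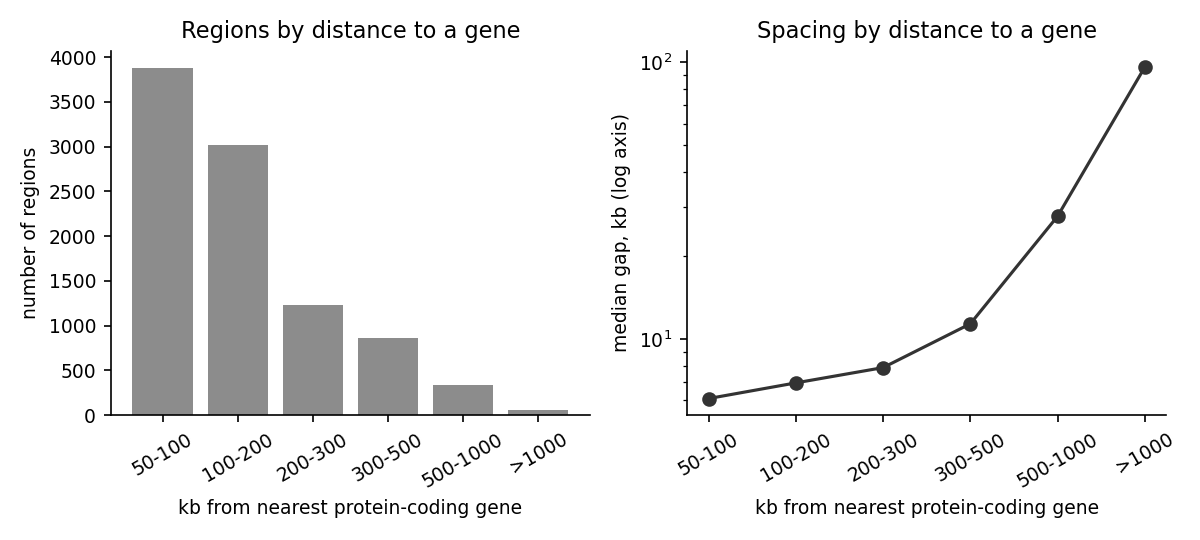
Number of desert regions (left, bars) and median gap to the nearest other shared region in kb (right, log axis) by distance from the nearest protein-coding gene in kb. Numbers drop to 58 regions beyond 1000 kb, where the median gap reaches 95748 bp.

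Desert regions lay farther from their neighbours than the other shared regions did. The median gap between a desert region and the nearest other shared region was 7215 bp, with quartiles of 2488 and 19560 bp, against 4861.5 bp for the other shared regions. A neighbour lay within 10 kb of 59.4% of desert regions, against 74.0% of the others, and 11.2% had none within 50 kb, against 2.77%. When neighbours within 10 kb were chained, 3915 regions (41.8%) stood alone, and 200 runs of 5 or more held 1305 regions (13.9%).

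The run with the most regions, 16, was chr9:3000324-3038226, at the start of the assembled chromosome. Its nearest protein-coding gene, Alkbh8, which encodes a tRNA-modifying enzyme, lay 297 to 335 kb away. Its regions were narrow, with medians of 300 and 326.5 bp in KO cells and 308 and 303.5 bp in WT cells, so that the medians as deposited overlapped between genotypes. After quantile normalisation (described below) both KO widths exceeded both WT widths at 10 of the 16 regions and lay below at 0. The shares were 18% and 17.5% over all desert regions and 20.3% and 14.8% over all shared regions. Peak positions cannot show whether the reads of this run map uniquely, which was not tested. The next run, of 15 regions at chr6:114535578-114589880, lay between Atg7, an autophagy gene, and Hrh1, the histamine H1 receptor gene. Its median widths were 510 and 526 bp in KO cells and 517 and 541 bp in WT cells. Runs of 13 lay near Cstad (chr2:30667332-30726289) and 58 to 106 kb from Tbx3, a T-box transcription factor gene (chr5:119563920-119612926). The Tbx3 run had medians of 404 and 487 bp in KO cells and 446 and 431 bp in WT cells, which overlapped. A run of 12 lay between Zdhhc17 and Osbpl8 (chr10:111060643-111109104), and another of 12 in and beside Morrbid (chr2:128390182-128438720), a lncRNA gene known in mouse myeloid cells.

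Gaps of over 100 kb between protein-coding spans numbered 2947, and 1414 of them (48.0%) held no desert region. Counted over the parts of these gaps that lay over 50 kb from both flanking genes, 977 Mb in all, there were 9.53 desert regions per Mb. Inside gene spans there were 43.0 shared regions per Mb and within 50 kb of genes 33.5. The 283 gaps longer than 1 Mb held 3.81 per Mb, against 14.9 per Mb in shorter ones. The 226 fullest gaps together held more desert regions than all the others. Chromosome X had 3.08 desert regions per Mb of such sequence, against 8.23 to 14.7 on the autosomes, and 7 desert regions lay on Y. Desert regions made up 14.7% of the shared regions on X, against 12.4% over all chromosomes. The low number per Mb on X was thus not shown to be particular to deserts.

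The fullest gap, between Med13l, a Mediator subunit gene, and Tbx3, held 69 desert regions in 905 kb. Their median width was 434 and 478 bp in KO cells, against 482 and 469 bp in WT cells. The gap between Adgrl2 and Adgrl4, a pair of adhesion G protein-coupled receptor genes of which Adgrl4 is an endothelial gene, held 57 regions in 2449 kb. Medians there were 590 and 520 bp in KO cells and 522 and 509 bp in WT cells. The gap from Klf4 to Actl7b held 56. Among the 25 gaps with most regions, Haao to Zfp36l2 had the highest density, 17.0 per 100 kb of sequence over 50 kb from both genes, and Irf8 to Foxf1 had 15.8. Foxf1 encodes a forkhead factor needed for lung vessels, and Irf8 a factor of myeloid cells. The 36 regions of the Irf8 to Foxf1 gap had medians of 513 and 473.5 bp in KO cells and 516 and 534.5 bp in WT cells, higher in both WT libraries than in the KO libraries. Medians as deposited lay the same way over all desert regions, at 481 and 444 bp in KO cells and 485 and 492 bp in WT cells. After quantile normalisation (described below) 7 of the 21 regions nearest to Irf8 were wider in both KO libraries and 3 narrower. Of the 15 nearest to Foxf1, 2 were wider and 1 narrower.

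The longest gap with 0 desert regions, 4542 kb, lay between Pcdh20 and Pcdh9, which encode protocadherins, a family of adhesion proteins. Olfm4 to Pcdh17 (4420 kb), D3Ertd751e to Pcdh10 (3575 kb), Brinp3 to Pla2g4a (2927 kb) and Prmt6 to Amy2b (2897 kb) came next. Of the 283 gaps longer than 1 Mb, 67 held none.

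By nearest protein-coding gene, the desert regions fell to 2150 genes, and 10 genes had 30 or more each, the counts being fixed by position alone. Adgrl2 had 61, at 52 to 1063 kb from the gene. Zfp608, a zinc-finger gene, had 45, and Myc, the growth-controlling transcription factor gene, had 42, on both sides of the gene. Tbx3 had 40, all before the gene span, and Med13l had 39. Sox4, a developmental SOX factor gene, and Trib2, a pseudokinase gene, had 32 each. Efnb2, which encodes the arterial ligand ephrin-B2, had 31, out to 1557 kb. Klf4, a flow-responsive transcription factor gene in endothelium, and Mn1, a transcriptional coregulator gene, had 30 each.

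**Figure D2:**
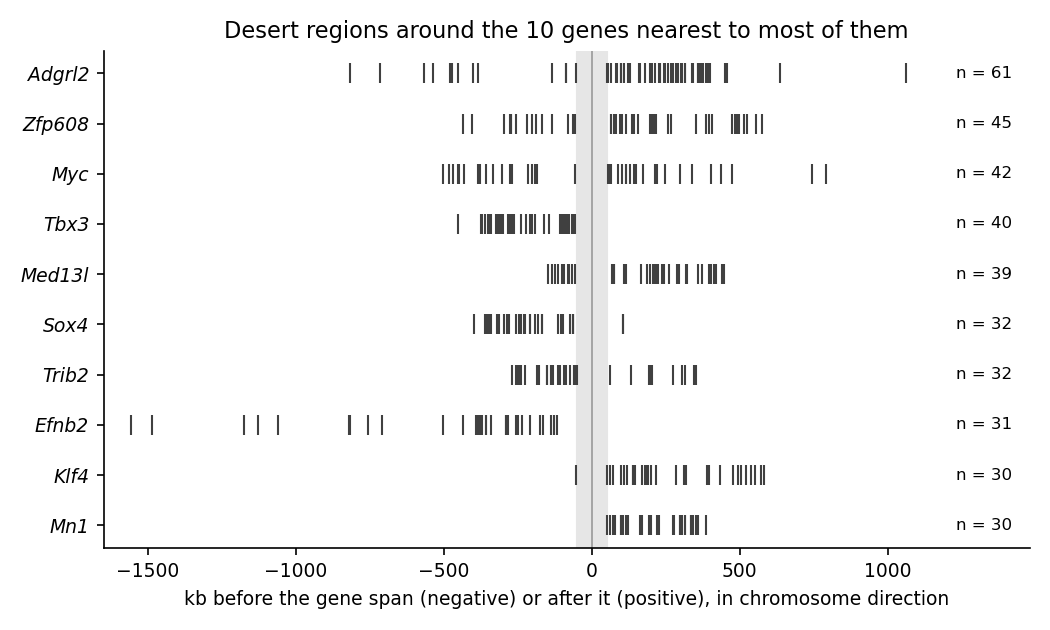
Positions of desert regions (ticks) around the 10 protein-coding genes nearest to most of them, in kb before (negative) or after (positive) the gene span in chromosome direction. The grey band marks the 50 kb on either side that the rule leaves out. Regions of Tbx3 all lie before the gene and those of Mn1 after it.

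Median widths of the 2 genotypes overlapped at 7 of these 10 genes, and at Tbx3, Sox4 and Adgrl2 they did not. At Adgrl2 the median was 583 and 494 bp in KO cells, against 488 and 443 bp in WT cells, both KO values above both WT values. Sox4 regions had medians of 454 and 454.5 bp in KO cells, against 500 and 490.5 bp in WT cells, both KO values below, as at Tbx3 with 428 and 433 bp in KO cells, against 443.5 and 434.5 bp in WT cells. After the quantile normalisation described below, which sets the width distributions of the libraries equal, Tbx3 did not lean that way, with 8 regions wider and 5 narrower in both KO libraries and a median log2 difference of 0.012. Sox4 then had 3 of 32 regions wider and 6 narrower, with a median log2 difference of -0.0052. Adgrl2 had 15 of 61 wider and 9 narrower, with a median log2 difference of 0.051. Over all shared regions 20.3% were wider and 14.8% narrower. At Klf4 the medians were 581.5 and 513 bp in KO cells and 595.5 and 560 bp in WT cells, and at Efnb2 they were 483 and 396 bp in KO cells and 427 and 444 bp in WT cells, which overlapped.

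The labelled cell type was checked against its markers. All 20 pan-endothelial markers were open, with a peak at most 1000 bp from either end of the gene, in every library. The same held for 7 and 8 of 13 epithelial markers in KO cells and 9 and 8 in WT cells, and for 4 and 4 of 12 leukocyte markers in KO cells and 5 and 4 in WT cells. Mural markers numbered 8 and 9 of 10 in KO cells and 10 and 9 in WT cells, and fibroblast markers 6 and 6 of 10 in KO cells and 6 and 5 in WT cells. An open marker is not an expressed one, and the part of other cell types in the results below was not tested.

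Desert regions were nearest to 7 of the 20 pan-endothelial marker genes, 67 regions in all. Kdr, the gene of vascular endothelial growth factor receptor 2, had 15 and S1pr1, a sphingosine 1-phosphate receptor gene, 14. Cdh5, the gene of VE-cadherin, had 10 and Clec14a, an endothelial lectin gene, 8. Of the 12 leukocyte markers only Ptprc, the gene of CD45, had any, 15. Epcam had 4 as the single epithelial gene of 13, the 10 mural genes had 0, and 5 of 10 fibroblast genes had 16, of which Pdgfra had 8.

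The other gene lists differ in size, so that their counts are given beside their numbers of genes. Of 50 endothelial transcription factor genes, 29 had 287 desert regions, led by Tbx3, Klf4, Foxo1 with 21 and Ets1 and Klf6 with 20 each. Of 110 developmental transcription factor genes, 50 had 275, led by Sox4, Sox11 with 29, Gata3 with 20 and Foxa2 and Sox9 with 14 each. VEGF, angiopoietin and guidance genes had 158 at 20 of 40 genes, with Efnb2, the semaphorin gene Sema6a (20), the ephrin receptor gene Epha4 (15) and Kdr in front. Notch, BMP and TGF-beta genes had 145 at 16 of 38 genes, led by Id2 (22), Hes1 (21) and the Notch ligand gene Jag1 (20). AP-1, KLF and immediate early genes had 125 at 9 of 22 genes, led by Myc, Klf4, Klf6 and Jun (15). Adhesion genes had 169 at 23 of 46, with Adgrl2, the N-cadherin gene Cdh2 (15), Cadm1 (14) and Cdh5 in front. Markers of capillary, arterial, venous and lymphatic endothelium had 99 at 11 of 34 genes, led by Efnb2, Cxcl12 (13) and Ednrb (12). Of 16 genes of the DNA methylation machinery, 2 had desert regions, Tet2 with 4 and Mbd2 with 3. Some genes stand in several lists.

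At the targeted gene, Dnmt3a (chr12:3801559-3914443), no desert region had it as nearest gene, and the closest one on the chromosome lay 628 kb away, nearest to Rab10. Peak positions cannot show whether the deletion was complete.

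Many desert regions lay in genes of other kinds. The centre of 2312 (24.7%) fell inside a non-coding or gene-segment span, against 18.7% of the other shared regions outside protein-coding genes. A lncRNA span held 2204 of them (23.5%), and 24 fell in antigen receptor loci, 18 of them in Tcra, the T cell receptor alpha locus. Another 2015 (21.5%) lay over 50 kb from every annotated gene of any kind.

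By lncRNA gene, 2610307P16Rik, beside Sox4, held 33 desert regions, Gm30382, beside Adgrl2, held 32, and A930011G23Rik, whose nearest protein-coding gene is Rasgef1b, held 25. In A930011G23Rik the median width was 382 and 410 bp in KO cells, against 446 and 459 bp in WT cells, both KO values below. After quantile normalisation (described below) 2 of its 25 regions were wider in both KO libraries and 4 narrower. Over all desert regions 18% were wider and 17.5% narrower. In Gm30382 the median width was 614 and 576.5 bp in KO cells, against 578.5 and 551 bp in WT cells, which overlapped. Morrbid held 17, and so did Pvt1, a lncRNA gene beside Myc. At the Morrbid start the peak was 1189 and 733 bp wide in KO cells, against 461 and 720 bp in WT cells, a log2 difference of 0.74 ± 0.31 (SE) with an adjusted p of 0.869 in limma. Both KO values exceeded both WT values there. Mir100hg, the host gene of miR-100, held 11 regions, and the one on its start was 700 and 683 bp in KO cells, against 663 and 795 bp in WT cells. Mir99ahg, named as the host gene of miR-99a, ended at position 77558428 of chromosome 16 in the annotation used. The miR-99a hairpin began beyond it, at 77598936. Mir99ahg held 6 regions, and the one on its start was 1251 and 980 bp in KO cells and 1100 and 1292 bp in WT cells. Both of these starts overlapped between genotypes.

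The region over the miR-30a hairpin, chr1:23270931-23272435, was 1401 and 1094 bp wide in KO cells, against 1176 and 1167 bp in WT cells, and the genotypes overlapped. The region 4550 bp from the miR-30c-2 hairpin was 419 and 417 bp in KO cells, against 438 and 484 bp in WT cells, both KO values below. The region over the miR-9-2 hairpin, chr13:83737715-83738932 and 72 kb from Mef2c, a MADS-box factor gene, was 527 and 392 bp in KO cells, against 708 and 1061 bp in WT cells. Both KO values lay below both WT values, a log2 difference of -0.91 ± 0.25 (SE) with an adjusted p of 0.730 in limma.

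As deposited, the median width of desert regions was lower in both KO libraries than in both WT libraries. It was 481 and 444 bp in KO cells, against 485 and 492 bp in WT cells. The means were 462.5 ± 26.2 bp in KO cells and 488.5 ± 4.95 bp in WT cells (SD, n = 2 each), a difference of -26 bp with a two-sided exact permutation p of 0.333, the smallest that 2 against 2 can give. Other shared regions showed a difference of -20 bp in the same direction, with medians of 509 and 483 bp in KO cells and 514 and 518 bp in WT cells. Without KO replicate 1 the desert difference was -41 bp and without KO replicate 2 it was -10 bp. The ratio of desert to other medians did not separate the genotypes (difference of log2 ratios -0.02, exact permutation p = 0.667).

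Narrow regions made up a larger share in both KO libraries than in either WT library, and wide regions did not separate the genotypes. Regions of at most 250 bp made up 8.49% and 5.15% of desert regions in KO cells, against 2.66% and 2.66% in WT cells, a difference of 4.17 percentage points (exact permutation p = 0.333). Among other shared regions the same shares were 7.21% and 3.35% in KO cells and 2.12% and 2.62% in WT cells. Regions of at least 1000 bp made up 5.71% and 3.32% of desert regions in KO cells, against 4.56% and 4.63% in WT cells, so that KO replicate 1 had most and KO replicate 2 fewest (difference -0.080 percentage points, exact permutation p = 1). The KO lists were the shortest and the second longest, with 85091 and 100879 peaks in KO cells against 101442 and 97627 in WT cells, and the part of list length in these shares was not tested. In each list, 12.9% and 12.6% of KO peaks lay in deserts, against 13.3% and 13.4% of WT peaks.

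Whether desert regions were narrower than others depended on the comparison. Against all other shared regions the log2 ratio of medians was -0.08 and -0.12 in KO cells and -0.08 and -0.07 in WT cells, a mean of -0.09 ± 0.02 (SD, n = 4 libraries). All 4 libraries had narrower desert regions, with a two-sided exact sign-flip permutation p of 0.125, the smallest 4 libraries can give. Against other shared regions outside genes and 1 to 50 kb from them, the sign turned in all 4 libraries, with 0.05 and 0.01 in KO cells and 0.04 and 0.05 in WT cells, a mean of 0.04 ± 0.02 (exact p = 0.125). Regions of at least 1000 bp were 10.8% and 7.89% of the other shared regions in KO cells and 9.59% and 9.96% in WT cells, a higher share than among desert regions in every library. By distance, the medians beyond 1000 kb were 449 and 357 bp in KO cells and 394.5 and 401 bp in WT cells.

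**Figure D3:**
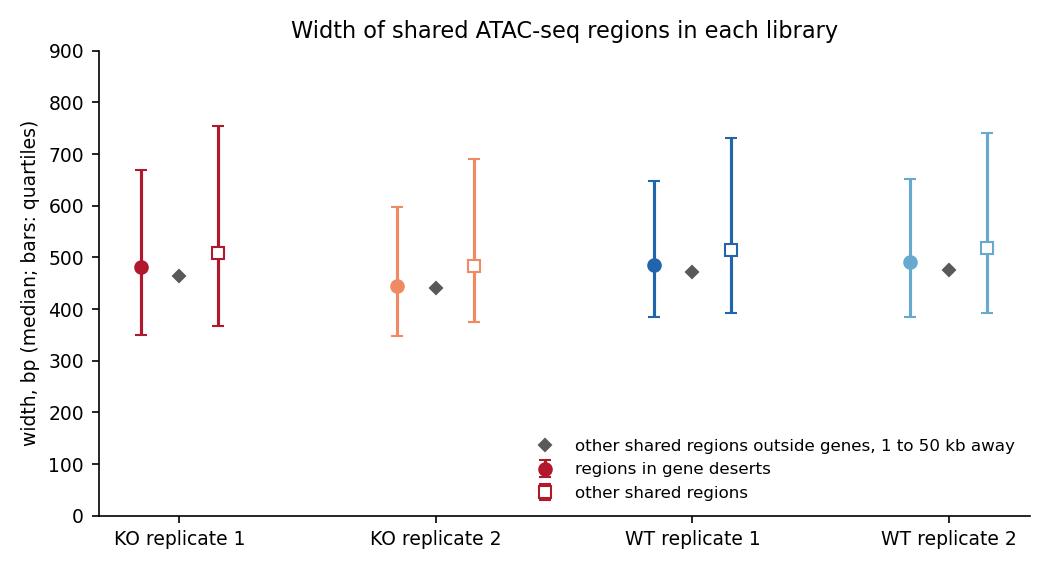
Median width in bp, with quartiles as bars, of desert regions (filled circles) and other shared regions (open squares) in each library; grey diamonds give the median of other shared regions outside genes and 1 to 50 kb from them. Desert medians, from 444 to 492 bp, lie below the squares and above the diamonds in every library.

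Library widths were then quantile-normalised and tested region by region with limma over all 75395 shared regions. No desert region passed an adjusted p under 0.05 (0 of 9373, smallest adjusted p = 0.537), and neither did any of the 75395 (0%). At an unadjusted p under 0.05 there were 656 desert regions (7%), against 6.03% of all shared regions. Of these 245 were wider in KO cells (2.61%, against 2.85% of all shared regions) and 411 narrower (4.38%, against 3.18%). The raw split of these calls changed with the set of libraries. It does not show whether the lean against all shared regions changed too. Without KO replicate 1 there were 432 wider and 987 narrower, 1419 in all (13.2%, against 10.7% of all shared regions). Without KO replicate 2 there were 945 wider and 941 narrower, 1886 in all (19.2%, against 18.3%). The split was also near even without WT replicate 1, with 166 wider and 174 narrower (340, or 3.57%, against 2.94%), and without WT replicate 2, with 206 wider and 214 narrower (420, or 4.41%, against 3.41%). The median log2 difference was -0.0038 over desert regions and 0.011 over the others, and 90% of desert regions lay between -0.40 and 0.33. Without KO replicate 1 the median was 0.0041 over desert regions, against 0.026 over all shared regions. Without WT replicate 1 it was 3.8e-16, against 0.0098, and without WT replicate 2 it was -0.0057, against 0.0058. Only without KO replicate 2 was it not lower over desert regions, at -3.2e-05 against -0.0022.

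Both normalised KO widths exceeded both WT widths at 1684 desert regions (18%), against 20.3% of all shared regions. Both KO widths lay below both WT widths at 1640 (17.5%), against 14.8%. With 1 library left out, a lone width is set against a pair and apart more often by construction, and 2765 to 4047 desert regions were wider and 2723 to 3894 narrower. Narrower ones then made up 36.4% of desert regions without KO replicate 1, against 30.6% of all shared regions, and 38.9% without KO replicate 2, against 40.05%, so that the order turned round without that library. They were 28.6% without WT replicate 1, against 25.1%, and 30.2% without WT replicate 2, against 26.3%. Without quantile normalisation the split was 675 KO wider (7.20%) and 2733 KO narrower (29.2%), against 7.37% and 27.1% of all shared regions. The share with narrower KO widths was 16.4% at 50 to 100 kb from a gene, 18.2% at 100 to 200 kb, 18.5% at 200 to 300 kb, 19.1% at 300 to 500 kb, 17.8% at 500 to 1000 kb and 8.62% of the 58 regions beyond 1000 kb. The share with wider KO widths ran from 15.9% to 19.3% in the classes up to 1000 kb and was 24.1% beyond. Widths of the 2 KO libraries correlated less across desert regions (r = 0.82) than those of the 2 WT libraries (r = 0.91), and the pairs of 1 KO and 1 WT library ranged from 0.83 to 0.87, over 9373 regions that are not independent.

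The regions with the smallest p are described with their widths as deposited, and none had an adjusted p below 0.537. Near Serp2, which encodes an endoplasmic reticulum stress protein, chr14:76739743-76740704 was 768 and 666 bp wide in KO cells, against 303 and 303 bp in WT cells (log2 difference 1.34 ± 0.09, SE). Near Efna5, the gene of the guidance ligand ephrin-A5, chr17:62543784-62544776 was 715 and 834 bp in KO cells, against 277 and 285 bp in WT cells. Near Mettl25, a methyltransferase-like gene, chr10:105688541-105689157 was 540 and 554 bp in KO cells, against 243 and 201 bp in WT cells. The KO widths of all 3 were over 2 times the WT widths. Lrig2 (818 and 690 bp in KO cells, 346 and 364 bp in WT cells) and Pja1, a ubiquitin ligase gene on X (839 and 793 bp in KO cells, 506 and 509 bp in WT cells), completed the 5. In KO replicate 2 the regions near Serp2, Mettl25, Lrig2 and Efna5 were each made of 2 peaks, which a single peak of KO replicate 1 joined. Without KO replicate 1 these regions came apart, and the part called in the remaining lists had log2 differences of 0.67, 0.77, 0.12 and 0.80. At Lrig2 the difference was 0.66 with the widest peak of each list in place of summed peaks, against 1.16.

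On the narrower side, chr1:88987981-88988707 near Sh3bp4, an endocytosis gene, was 235 and 270 bp wide in KO cells, against 711 and 665 bp in WT cells (log2 difference -1.33 ± 0.09, SE). Near Aff3, which encodes a nuclear transcription factor, chr1:38696001-38696501 was 201 and 211 bp in KO cells, against 481 and 481 bp in WT cells. The value of 201 bp is the narrowest width in any list. Some 1393 kb from Tenm3, a teneurin gene of neural wiring, chr8:50915216-50916641 was 469 and 503 bp in KO cells, against 1242 and 1111 bp in WT cells. Near Kit, the stem cell factor receptor gene, chr5:75500872-75501692 was 389 and 405 bp in KO cells, against 752 and 776 bp in WT cells. Near Skap2, an adaptor gene, the widths were 206 and 201 bp in KO cells and 518 and 595 bp in WT cells. In all 10 regions the genotypes were apart, which the choice by p fixes. The regions near Sh3bp4 and Tenm3 came apart in the same way without WT replicate 1, where Sh3bp4 had a log2 difference of -0.27, and without WT replicate 2, where Tenm3 had -0.20.

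**Figure D4:**
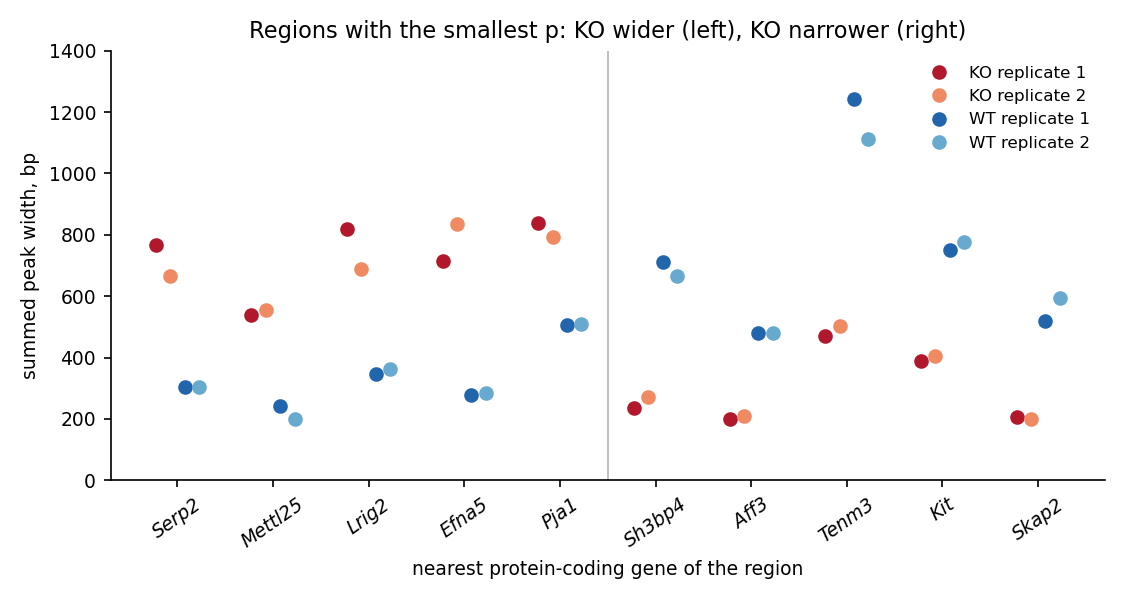
Summed peak width in bp of the 5 desert regions with the smallest limma p on each side, labelled by nearest gene, in 2 KO (red) and 2 WT (blue) libraries. KO widths at Efna5 were 715 and 834 bp against 277 and 285 bp in WT cells, and no region passed adjustment.

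By list of the nearest gene, desert regions of developmental transcription factors were more often narrower than wider in KO cells. Of their 275 desert regions, 76 (27.6%) had both KO widths below both WT widths, against 17.5% of all desert regions and 14.8% of all shared regions, and 31 (11.3%) had both above, against 18% and 20.3%. Their median log2 difference was -0.05, against -0.0038 over all desert regions. Median widths as deposited were 462 and 439 bp in KO cells, against 494 and 491 bp in WT cells. At an unadjusted p under 0.05, 18 were narrower in KO cells (6.55%, against 4.38% of desert and 3.18% of all shared regions) and 5 wider (1.82%, against 2.61% and 2.85%), and 0 passed adjustment. Narrower regions outnumbered wider ones at 30 of the 50 genes, equalled them at 14 and were fewer at 6. Without quantile normalisation 114 were narrower (41.5%, against 27.1% of all shared regions) and 17 wider (6.18%, against 7.37%). In the fits without 1 library narrower ones made up 37.1% to 46.0%, against 28.6% to 38.9% of desert and 25.1% to 40.05% of all shared regions. Wider ones made up 21.4% to 31.8%, against 29.1% to 38.6% of desert and 31.5% to 43.9% of all shared regions. Without KO replicate 2 the share narrower over all shared regions was itself 40.05%, against 46.0% for the list.

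The regions behind this count were spread over many factors. Nr2f2, which encodes the venous-identity factor COUP-TFII, had 4 desert regions, and at 3 of them both KO widths lay below both WT widths. One, 71 kb from the gene at chr7:70280430-70281655, was 439 and 229 bp wide in KO cells, against 1170 and 555 bp in WT cells. Another, at chr7:70214196-70214684, was 303 and 201 bp in KO cells, against 465 and 462 bp in WT cells. Tshz3, a zinc-finger developmental gene, had 10, of which 6 were narrower and 2 wider. Its region at chr7:36825194-36825546 was 201 and 217 bp in KO cells, against 320 and 353 bp in WT cells. Meis1, a homeobox gene, had 5 of 10 narrower and 1 wider, and its region at chr11:18681628-18682035 was 231 and 256 bp in KO cells, against 383 and 381 bp in WT cells. Sall1, a kidney and limb regulator gene, had 4 of 12 narrower and 2 wider. Runx1, a hematopoietic factor gene, had 4 of 6 narrower and 0 wider. Foxa2, an endoderm factor gene, went the other way, with 1 of 14 narrower and 6 wider, and Sox6 with 1 of 9 narrower and 4 wider. These genes other than Foxa2 were picked after their values were seen.

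Desert regions of the pan-endothelial genes were more often wider than narrower after normalisation. Of their 67 desert regions, 17 (25.4%) had both KO widths above both WT widths, against 18% of all desert regions and 20.3% of all shared regions. Both lay below at 7 (10.4%), against 17.5% and 14.8%, so that all shared regions leaned to wider as well. The median log2 difference was 0.04. At an unadjusted p under 0.05, 4 were wider in KO cells (5.97%, against 2.85% of all shared regions) and 0 narrower (against 3.18%). Without quantile normalisation this split was 11 wider (16.4%) and 12 narrower (17.9%), against 7.37% and 27.1% of all shared regions. At Kdr, 6 of 15 regions were wider and 2 narrower. The region 79 kb from Kdr at chr5:75853107-75853936 was 778 and 618 bp wide in KO cells, against 391 and 255 bp in WT cells (adjusted p = 0.612, limma). Clec14a had 4 of 8 wider and 0 narrower, S1pr1 had 4 of 14 wider and 2 narrower, and Cdh5 had 1 of 10 on each side. Emcn, with 8 regions, and Cldn5, with 5, went the other way, each with 0 wider and 1 narrower. Wider regions outnumbered narrower ones at 4 of the 7 genes, equalled them at 1 and were fewer at 2.

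The other lists are read against the same shares, 18% wider and 17.5% narrower over desert regions and 20.3% and 14.8% over all shared regions. Endothelial transcription factors had 55 of 287 wider (19.2%) and 38 narrower (13.2%), and Notch, BMP and TGF-beta genes 32 of 145 wider (22.1%) and 22 narrower (15.2%). AP-1, KLF and immediate early genes had 30 of 125 wider (24.0%) and 17 narrower (13.6%), 12 and 5 of them at Myc. VEGF, angiopoietin and guidance genes had 33 of 158 wider (20.9%) and 25 narrower (15.8%). Adhesion genes had 30 of 169 on each side (17.8%) and vessel-type markers 19 of 99 on each side (19.2%). Without quantile normalisation narrower regions outnumbered wider ones in each of these 6 lists, as they did over all shared regions (27.1% and 7.37%). The share narrower was above 27.1% for endothelial transcription factors (28.9%) and vessel-type markers (30.3%). In the other lists it was below, from 23.1% to 25.3%. The share wider ran from 6.27% to 11.7%. The 15 regions of Ptprc, the leukocyte marker, had 3 on each side, and the 16 of fibroblast genes 2 wider and 3 narrower. Of the 7 regions of DNA methylation genes 1 was wider and 0 narrower, and of the 4 of Epcam 0 were apart.

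**Figure D5:**
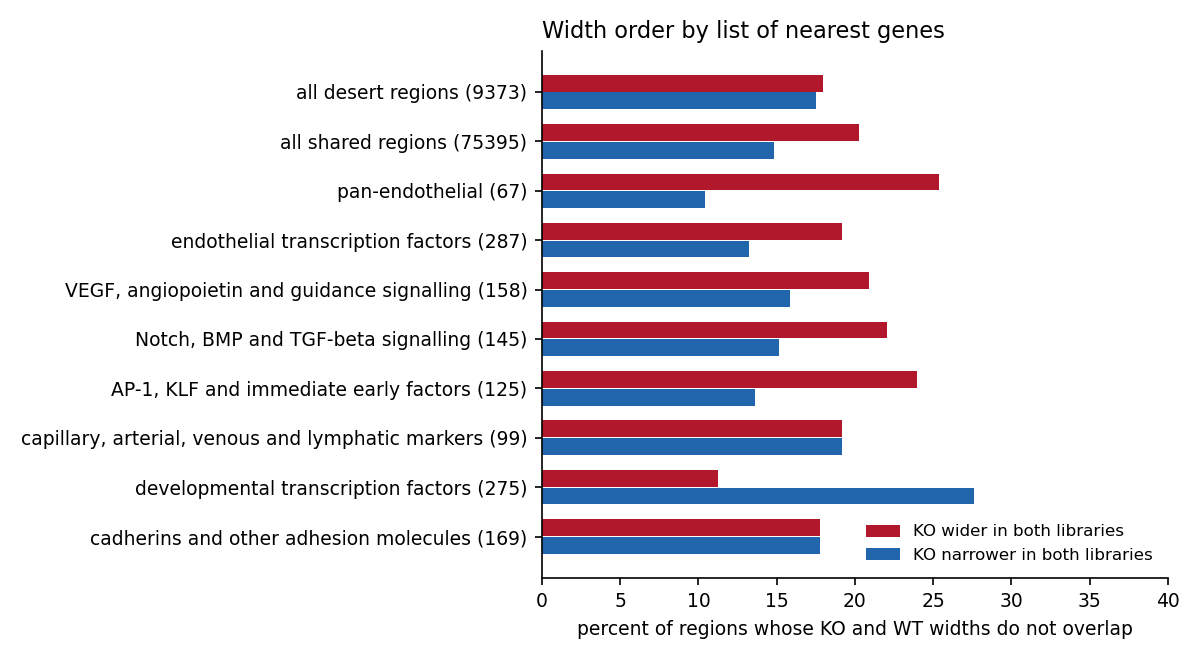
Percent of desert regions whose 2 KO widths both exceeded (red, upper bar) or both lay below (blue, lower bar) the 2 WT widths after quantile normalisation, by list of the nearest gene, with the number of regions in brackets and all desert and all shared regions on top. Developmental transcription factors have 27.6% narrower and 11.3% wider, and pan-endothelial genes 10.4% narrower and 25.4% wider.

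The widest desert region, chr17:39842996-39848827, was 5812 and 4555 bp wide in KO cells, against 4649 and 5189 bp in WT cells, which overlapped. It lay on the annotated pseudogene Rn18s-rs5, a ribosomal RNA copy, and since such sequences occur in many copies the origin of its reads is uncertain. The second, chr13:12701910-12704531, lay on the pseudogene Gm2399 near Prl2c3, and its 2312 and 2446 bp in KO cells and 2400 and 2605 bp in WT cells carry the same doubt. The other 6 of the 8 widest lay 50 to 556 kb from Jcad, Zfp608, Sox13, Zfp236, Sstr4 and Tes. The region 76 kb from Jcad, a gene of endothelial cell junctions, was 2004 and 1887 bp in KO cells, against 2137 and 2093 bp in WT cells, both KO values below.

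The farthest region from a protein-coding gene, chr1:102628088-102628449, lay 2138 kb from Cntnap5b, a neural adhesion gene, and 131726 bp from an annotated pseudogene. It was 357 and 362 bp wide in KO cells, against 360 and 354 bp in WT cells, and it overlapped between genotypes. The next, 1766 kb from G6pd2, was 339 and 339 bp in KO cells, against 368 and 341 bp in WT cells. The region 1583 kb from Dsel was 382 bp in all 4 libraries. The remaining ones of the 5, 1709 kb from Slc10a2 and 1638 kb from Grik2, ranged from 238 to 378 bp in KO cells and from 278 to 384 bp in WT cells. At the 50 kb limit, the closest regions inside the rule lay 50018 bp from Glrp1 and 50021 bp from Nenf, and the closest outside lay 49995 bp from Ssbp2 and 49994 bp from Tmem65.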

How the data were processed

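Per the submitters' processing notes, cutadapt, Bowtie2, Picard and the mm10 build were used. The peak caller, its threshold and any transposase shift are not given in the sources used here. Per the file headers, the authors deposited 1 peak list a library with chromosome, start, end, width and strand. The width, in bp, is the only value, was not normalised, and was at least 201 bp. Only chromosomes 1 to 19, X and Y were used, which dropped 92 and 134 peaks of the KO libraries and 134 and 124 of the WT libraries. Width was summed per region and list. Distances run from the region's centre to 21775 protein-coding spans of a RefSeq table (GRCm38.p6, the mm10 assembly); spans ending before 3 Mb on chromosomes other than Y, which are in scaffold coordinates, were left out.

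The regions and gene lists were chosen with earlier results of these data known. Per-region tests used limma (3.58.1, two-sided, Benjamini-Hochberg over 75395 shared regions) on quantile-normalised log2 width, and library values an exact permutation test. A check of limma on simulated data required planted differences to be called only where all regions had a common spread. With the spread of each region it required only the right sign and size, so the share of true differences found there is not stated. Named were the 10 genes nearest to most regions, the 8 widest, the 5 farthest and the 5 regions with the smallest p on each side, the runs with most regions, up to 4 genes a list, the 2 regions on either side of the 50 kb limit and Dnmt3a; others were chosen after their values were seen. Alternatives covered left-out libraries, distance, annotation, chromosomes, overlap, normalisation, width filter and a replicate block. Python 3.11.15 and R 4.3.3 were used.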

Additional observations from a re-analysis of the deposited data

How the results depend on the processing

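No setting gave a desert region with an adjusted p under 0.05 in limma. The desert-to-other width ratio reversed, to 0.0371 on the log2 scale, against shared regions outside genes and 1 to 50 kb away. Leaving out 1 library gave 340 to 1886 regions at an unadjusted p under 0.05, 2765 to 4047 with KO wider and 2723 to 3894 with KO narrower in widths that did not overlap, and a spacing of 6140 to 7103 bp. Over 100 kb from a gene there were 5496 regions spaced at 7963 bp. Of these 399 (7.26%) had an unadjusted limma p under 0.05, 971 (17.7%) were KO wider and 1004 (18.3%) KO narrower. Over 50 kb from every annotated gene there were 2015 spaced at 9984 bp, with 150 (7.44%), 372 (18.5%) and 358 (17.8%). Over all shared regions the shares were 6.03%, 20.3% and 14.8%, with more wider than narrower. These 2 settings keep fewer regions. Without quantile normalisation 675 were wider and 2733 narrower. All merged desert regions, whatever lists called them, were spaced at 4655.5 bp. The other 56 values kept their direction and side of the threshold, or stayed within 1.5 times a count, as did 186 of 196 values of single genes and regions. The widest peak of each list in place of summed peaks, an alternative chosen after seeing the data, is among these.

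No pairing by replicate number was seen in the normalised widths (r = -0.045 between deviations of same-numbered libraries, over 75395 regions). Normalisation removes shifts of a whole library, so this cannot show whether same-numbered libraries were processed together. A fit with the replicate block gave 0 adjusted calls and 663 at an unadjusted p under 0.05 (7.07%, against 5.83% of all shared regions). Without the block there were 656 (7%, against 6.03%). Read depth is unknown, so no interval can be set on a width, and with 2 libraries a genotype the exact tests could not pass 0.05.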
